A study of Homo sapiens with 12 samples.

Results

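High mobility group (HMG) proteins are abundant non-histone proteins of chromatin, and 9 of their genes were followed through hairpin knockdown of the histone variant genes H2AZ2 and H2AZ1 in SK-mel147, an established line of human melanoma cells. The genes are HMGA1 and HMGA2, HMGB1, HMGB2 and HMGB3, and HMGN1, HMGN2, HMGN3 and HMGN5. They were listed by name, and the family was chosen by a measured value: HMGN1 was low with 1 of the H2AZ2 hairpins, sh_38. Values from sh_38 against the controls, and from both H2AZ2 hairpins together, are therefore given as a description with no test. Each gene was read from its brightest probe set among those that carry 1 gene symbol. In that way 7 of the 9 genes were measured, out of 18417 genes on the array. HMGA2 and HMGB1 shared their probe sets with other genes and have no value here.

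Messenger RNA was measured on 12 Affymetrix Human Gene 1.0 ST arrays. Cells were infected with lentiviruses that encode short hairpin RNAs: sh_37 or sh_38 against H2AZ2, sh_83 or sh_84 against H2AZ1, and the control hairpins scrambled or luciferase. Each hairpin has 2 arrays, so that each target has 4 arrays and the controls have 4. All cells, the controls included, carried a lentiviral hairpin. The sources used here give neither the time after infection nor any selection. No label states whether the replicates are separate cultures or infections; the p-values therefore cover the spread of these arrays alone, and that spread may be technical. All values are log2 expression as deposited by the authors, and a difference is the hairpin minus the 4 controls unless another pair is named.

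The 3 HMG families are built differently. HMGA proteins hold the minor groove of AT-rich DNA with short AT-hooks and are known for high levels in embryonic and tumour cells. HMGB proteins bend DNA with their HMG boxes, and HMGB1 also acts outside the cell as a signal through receptors of the innate immune system. HMGN proteins bind the nucleosome itself and compete with linker histone H1 for it. H2A.Z, the product of H2AZ1 and H2AZ2, replaces H2A in part of the nucleosomes.

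Promoter sequences from RefSeq (GRCh38.p14) matched 6 of the 9 genes by symbol: HMGA1, HMGB3, HMGN1, HMGN2, HMGN3 and HMGN5. Those of HMGN1, HMGA1 and HMGN2 are shown because the results below turn on these genes; each is the 250 bases before the start site on the gene's strand. The HMGN1 window lies at chr21:39349089-39349338 on the minus strand, that of HMGA1 at chr6:34236623-34236872 on the plus strand and that of HMGN2 at chr1:26472190-26472439 on the plus strand. Capitals mark CCAAT, the core of the NF-Y site, and GGCGGGA, a core of E2F sites, searched on both strands.
HMGN1: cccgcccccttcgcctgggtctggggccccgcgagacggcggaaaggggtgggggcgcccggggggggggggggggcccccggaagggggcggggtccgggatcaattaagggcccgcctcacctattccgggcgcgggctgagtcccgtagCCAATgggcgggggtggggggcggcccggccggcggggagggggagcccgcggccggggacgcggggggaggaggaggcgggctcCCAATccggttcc
HMGA1: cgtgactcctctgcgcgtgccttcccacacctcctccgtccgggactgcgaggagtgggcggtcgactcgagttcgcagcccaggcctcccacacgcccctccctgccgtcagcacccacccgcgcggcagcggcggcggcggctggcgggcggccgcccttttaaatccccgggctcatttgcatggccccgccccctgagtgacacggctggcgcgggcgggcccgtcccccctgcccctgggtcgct
HMGN2: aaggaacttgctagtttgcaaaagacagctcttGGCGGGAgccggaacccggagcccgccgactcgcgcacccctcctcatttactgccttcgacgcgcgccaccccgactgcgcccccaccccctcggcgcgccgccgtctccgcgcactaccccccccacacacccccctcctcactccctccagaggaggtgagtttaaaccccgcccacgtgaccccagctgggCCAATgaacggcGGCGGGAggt
HMGN1 held CCAAT 2 times, at -98 and -13 from the start site, and no GGCGGGA. HMGN2 held GGCGGGA 2 times, at -217 and -10, and CCAAT at -22, without overlap between the matches. The HMGA1 window held neither set of letters; a second HMGA1 start site had CCAAT at -146. Among the others HMGB3 held CCAAT 3 times before 1 of its start sites, HMGN3 held it 2 times and HMGN5 held neither motif. Over 35116 promoters of the same length, 32.0% held CCAAT and 13.5% held GGCGGGA. The windows were rich in G and C, with 80.4% for HMGN1, 74.8% for HMGA1 and 68.4% for HMGN2, against a median of 58.0% over all promoters.

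The targeted transcripts check the labels. With sh_37 the cells kept 46.1% of the H2AZ2 signal of the controls, and with sh_38 65.4%. H2AZ1 stood at 19.3% with sh_83 and at 92.0% with sh_84, so the arrays labelled sh_84 kept most of the H2AZ1 transcript. The sh_84 arrays overlapped the controls in H2AZ1, and the difference did not pass (limma adjusted p = 0.859). H2AZ1 was no higher with the H2AZ2 hairpins, at 86.2% with sh_37 (limma adjusted p = 0.19) and 90.5% with sh_38. All arrays of these hairpins lay below every control. The labels of the second sh_84 array disagree on its hairpin, and its title decided the group. Correlations between arrays over all genes were 0.9819 to 0.9976, and 5 of 12 arrays correlated best with the other array of their own hairpin. Of the melanocyte markers measured, the controls averaged 10.62 for SOX10 and 8.29 for MITF; PMEL, MLANA, TYR and TYRP1 averaged 4.76 to 5.72, and without array background values it cannot be said whether these 4 were detected.

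HMGA1 fell with sh_37 and did not pass the test with any H2AZ1 hairpin. Its values were 12.01 and 11.82 in the sh_37 arrays and 12.39 and 12.37 with sh_38, against 12.59 and 12.49 with scrambled and 12.70 and 12.55 with luciferase. The H2AZ1 hairpins gave 12.43 and 12.44 with sh_83 and 12.60 and 12.59 with sh_84. Both sh_37 arrays were the lowest of all 12, sh_38 and sh_83 lay just below every control, and sh_84 lay among the controls. The mean was 11.92 ± 0.14 with sh_37 (SD, n = 2) and 12.59 ± 0.09 in the controls (SD, n = 4), or 62.9% of the control level. The log2 difference was -0.67 (limma SE 0.08, adjusted p = 0.000454). With sh_38 the level was 86.5% of the controls, with sh_83 90.1% and with sh_84 100.5%. The arrays hold RNA of many cells together, so fewer cells with a transcript and less of it per cell cannot be told apart.

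HMGB2, an HMG-box protein known to be high in dividing cells, had the largest fall of the family with sh_37. It measured 9.19 and 9.19 with sh_37 and 9.83 and 9.83 with sh_38, against 10.00 and 9.88 with scrambled and 9.87 and 10.09 with luciferase. The sh_37 arrays lay well below all others, and the sh_38 arrays just under the lowest control. The log2 difference for sh_37 was -0.77 (limma SE 0.09, adjusted p = 0.000343), which is 58.5% of the control level, and HMGB2 ranked 144 from the lowest of 18417 genes in that comparison. With sh_83 HMGB2 measured 9.65 and 9.81, both under the controls, and with sh_84 10.16 and 10.31, both over them. Neither difference passed: it was -0.23 for sh_83 (limma SE 0.09, adjusted p = 0.406) and 0.27 for sh_84 (limma SE 0.09, adjusted p = 0.365). HMGB2 thus lay on opposite sides of the controls with the 2 hairpins labelled for H2AZ1.

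HMGB3, an X-linked relative known from blood stem cells of mice, passed in no test. It measured 8.79 and 8.95 with sh_37 and 8.86 and 8.80 with sh_38, against 9.23 and 9.15 with scrambled and 8.80 and 9.29 with luciferase. Replicate 1 of luciferase lay as low as the H2AZ2 arrays, so the groups overlapped. The log2 difference with sh_37 was -0.24 (limma SE 0.12, adjusted p = 0.242); without that control array it was -0.35 (limma adjusted p = 0.0185). The sh_83 arrays, at 9.13 and 9.10, and the sh_84 arrays, at 9.12 and 9.12, lay among the controls.

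**Figure D1:**
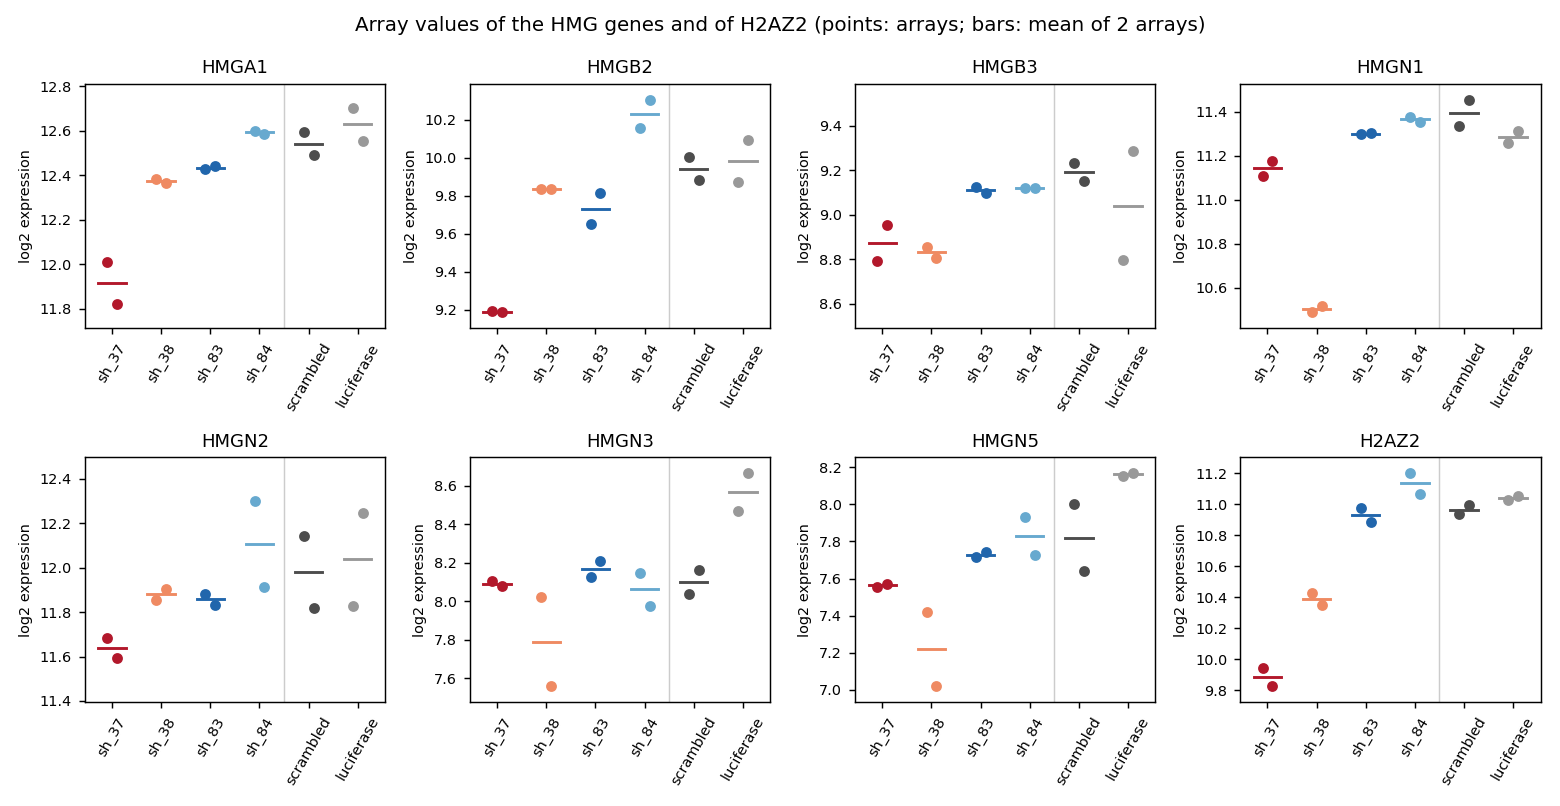
Log2 expression of the 7 measured HMG genes and of H2AZ2 on each of the 12 arrays, by hairpin; points are arrays and bars are means of 2 arrays, and each panel has its own axis. HMGA1 and HMGB2 are lowest in the sh_37 arrays, while HMGN1, at 10.49 and 10.52, is lowest in the sh_38 arrays.

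HMGN1, which binds nucleosomes and is known to loosen chromatin compacted by H1, was the gene that drew attention to the family. Its values were 10.49 and 10.52 with sh_38, against 11.33 and 11.46 with scrambled and 11.26 and 11.31 with luciferase. With sh_37 they were 11.11 and 11.18, with sh_83 11.30 and 11.30, and with sh_84 11.38 and 11.36. The sh_38 arrays stood far under all others, the sh_37 arrays came next, and the remaining 8 arrays, from 11.26 to 11.46, overlapped. HMGN1 was at 55.9% of the control level with sh_38, a log2 difference of -0.84, and ranked 73 from the lowest of 18417 genes. These values chose the family and carry no test. With sh_37, the hairpin with the lower H2AZ2 level, HMGN1 stood at 87.2% of the controls; both arrays were below every control, but the difference of -0.20 did not pass (limma SE 0.07, adjusted p = 0.108). The 95% interval of that difference was -0.36 to -0.04. For sh_83 the difference was -0.04 (95% interval -0.20 to 0.12) and for sh_84 0.03 (-0.13 to 0.18).

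HMGN2, the closest relative of HMGN1 in these families and a binder of the same nucleosome sites, measured 11.68 and 11.59 with sh_37 and 11.86 and 11.90 with sh_38, against 12.14 and 11.82 with scrambled and 11.83 and 12.25 with luciferase. The sh_37 arrays were below every control, though the controls spread over a wider range than that gap. The sh_37 difference was -0.37 (limma SE 0.14, adjusted p = 0.124) and did not pass. With sh_83 the arrays gave 11.88 and 11.83 and with sh_84 12.30 and 11.91, within the range of the controls but for the first sh_84 array.

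HMGN5 and HMGN3 spread widely between the control hairpins. HMGN5, known in mice to counter H1-dependent compaction, measured 7.56 and 7.57 with sh_37 and 7.42 and 7.02 with sh_38, against 8.002 and 7.64 with scrambled and 8.16 and 8.17 with luciferase. All 4 H2AZ2 arrays lay under every control array, and the scrambled arrays under the luciferase arrays. The sh_37 difference of -0.43 (limma SE 0.13, adjusted p = 0.0503) missed the threshold of 0.05 narrowly and passed it in 8 of 21 alternative settings (limma adjusted p = 0.0387 without replicate 1 of scrambled, 0.0112 without its replicate 2 and 0.024 without 1 array of sh_38); the level was 74.4% of the controls, and with sh_38 it was 58.6%. HMGN5 measured 7.72 and 7.74 with sh_83 and 7.93 and 7.73 with sh_84, between the scrambled arrays.

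HMGN3 measured 8.10 and 8.08 with sh_37 and 8.02 and 7.56 with sh_38, against 8.04 and 8.16 with scrambled and 8.47 and 8.66 with luciferase. With sh_83 it measured 8.13 and 8.21 and with sh_84 8.15 and 7.98. The luciferase arrays were the highest of all 12 and replicate 2 of sh_38 the lowest, and the other arrays overlapped. Against all controls HMGN3 was at -0.24 with sh_37 (limma SE 0.12, adjusted p = 0.269) and at 68.6% of the control level with sh_38. Against scrambled alone the sh_37 difference was -0.01. Scrambled against luciferase gave -0.47 for HMGN3 (limma SE 0.14, adjusted p = 0.611) and -0.34 for HMGN5 (limma SE 0.15, adjusted p = 0.661). No gene passed between the control hairpins by limma, and 1384 genes, 7.51%, had an unadjusted p under 0.05; HMGN3 (0.00734) and HMGN5 (0.0406) were 2 of them.

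Over the family, 2 of 7 measured genes passed with sh_37, both lower, where 7.19% of all genes tested were called lower and 12.9% were called in either direction. That background fell to 922 and 940 genes without replicate 1 or 2 of sh_37, against 2377 with both; HMGA1 and HMGB2 passed with either array left out. In 5 of 7 genes both sh_37 arrays lay below every control, which 17.2% of all genes did. A further 3 had an unadjusted p under 0.05 (HMGN1, HMGN2 and HMGN5), so that 5 of 7 did, beside 24.4% of all genes. All 7 differences were negative, where 46.5% of all genes were, with a median of -0.37 beside 0.01 over all genes. HMGN4 and HMGB4, canonical HMG genes outside the chosen list, stood at -0.03 and 0.13 with sh_37. The value that chose the family came from sh_38 and the controls, not from sh_37. Earlier results of these data were known when the genes were listed, so the sh_37 counts are not independent of that choice. With sh_38 all 7 were negative as well, where 43.3% of all genes were, with a median of -0.29 beside 0.03; this rests on the comparison that chose the family. From low to high the sh_38 differences were -0.84 for HMGN1, -0.77 for HMGN5, -0.54 for HMGN3, -0.29 for HMGB3, -0.21 for HMGA1 and -0.13 each for HMGN2 and HMGB2. The members that fell with sh_37, HMGA1 and HMGB2, were thus near the upper end with sh_38. HMGN1, by its brightest probe set, was lowest with sh_38 and nearest to the controls of the 7 with sh_37. Its place with sh_38 depends on that probe set: the dimmer one gave -0.46, nearer to 0 than HMGN5 and HMGN3. The difference between the 2 hairpins was not tested, since the sh_38 arrays were used to choose the genes, and both comparisons share the 4 controls. In 5 of 7 genes both sh_38 arrays lay below every control (12.8% of all genes), and in 3 of 7 when the arrays were quantile normalised again.

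**Figure D2:**
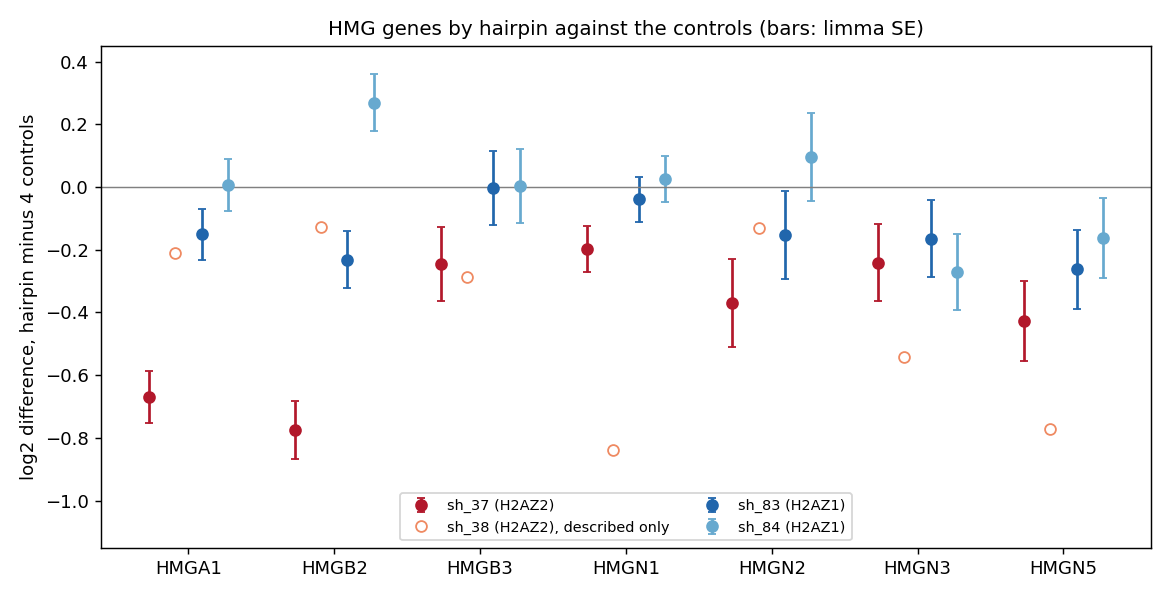
Log2 difference of each measured HMG gene from the 4 controls with sh_37, sh_38, sh_83 and sh_84; filled points carry the limma SE as bars, and the open sh_38 points are described only. The sh_37 points of HMGA1 (-0.67) and HMGB2 (-0.77) and the sh_38 points of HMGN1 (-0.84) and HMGN5 (-0.77) lie lowest.

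**Figure D3:**
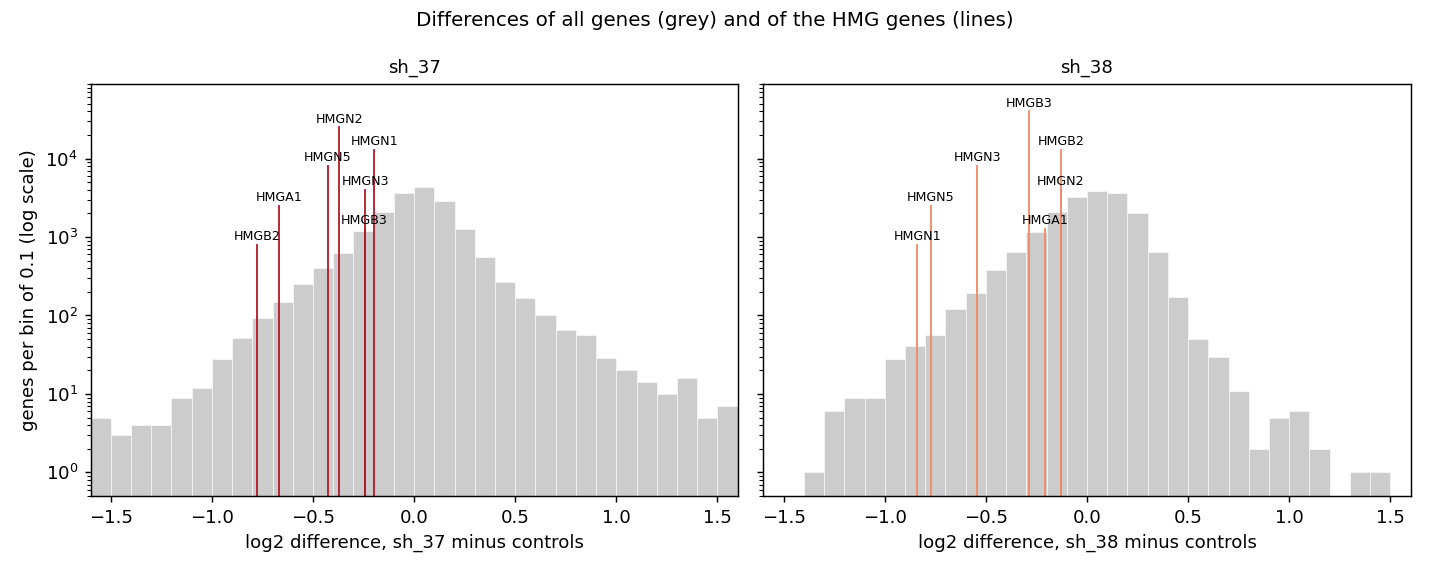
Number of genes, on a log axis, per bin of 0.1 of the log2 difference from the controls for sh_37 and sh_38 (grey), with a line at each HMG gene; line heights only keep the names apart. The 7 lines lie left of 0 in both panels, with HMGB2 at -0.77 as the lowest for sh_37 and HMGN1 at -0.84 as the lowest for sh_38.

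Over both H2AZ2 hairpins, described only, the differences were -0.60 for HMGN5, -0.52 for HMGN1, -0.45 for HMGB2, -0.44 for HMGA1, -0.39 for HMGN3, -0.27 for HMGB3 and -0.25 for HMGN2. In 4 of 7 genes (HMGA1, HMGB2, HMGN1 and HMGN5) all 4 H2AZ2 arrays lay below all controls, where 7.46% of all genes did. These means hide the order seen in each hairpin: in HMGB2 the SD over the 4 arrays was 0.37, with sh_37 as the low pair, and in HMGN1 it was also 0.37, with sh_38 as the low pair.

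The means of sh_37 and sh_83 hold no array of the comparison that chose the family, but earlier results of these data were known. Their test shares its estimate of the spread with all 12 arrays, the sh_38 and control arrays included. HMGA1 and HMGB2 were lower with the H2AZ2 hairpin sh_37 than with the H2AZ1 hairpin sh_83. HMGA1 averaged 11.92 ± 0.14 with sh_37 and 12.43 ± 0.01 with sh_83 (SD, n = 2 each), a log2 difference of -0.52 (limma SE 0.10, adjusted p = 0.0072). HMGB2 averaged 9.188 ± 0.003 with sh_37 and 9.73 ± 0.12 with sh_83 (SD, n = 2 each), a log2 difference of -0.54 (limma SE 0.11, adjusted p = 0.00976). So 2 of 7 genes passed, beside 3.23% of all genes called lower and 7.63% called in either direction. Those 1406 genes in either direction became 552 and 615 without replicate 1 or 2 of sh_37 and 563 and 470 without replicate 1 or 2 of sh_83. In all 7 genes the sh_37 arrays lay below the sh_83 arrays, as in 28.8% of all genes, and the 5 that did not pass ran from -0.24 for HMGB3 to -0.08 for HMGN3. Both calls rest on 2 arrays a side: HMGA1 had limma adjusted p = 0.0894 without replicate 2 of sh_37, 0.0598 without replicate 1 of sh_83 and 0.0725 without its replicate 2. HMGB2 had limma adjusted p = 0.0786 without replicate 1 of sh_37, 0.0731 without its replicate 2 and 0.121 without replicate 2 of sh_83.

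With the H2AZ1 hairpins no HMG gene passed. For sh_83, which left 19.3% of H2AZ1, the limma test called 0 of 7, beside 0.489% of all genes called lower and 0.641% in either direction, and HMGB2 alone had an unadjusted p under 0.05 (0.0285), as did 10.2% of all genes. The count of called genes with sh_83 was 118, against 7 and 6 without its replicate 1 or 2, 55 without 1 array of sh_37 or sh_84, and 66 and 51 without replicate 1 or 2 of luciferase. The differences ran from -0.26 for HMGN5 to -0.004 for HMGB3, with a median of -0.15 beside 0.01 over all genes. HMGA1 and HMGB2 had both sh_83 arrays below every control (10.9% of all genes). For sh_84 it was again 0 of 7, beside 0.353% of all genes, and HMGB2 (0.0137) and HMGN3 (0.0499) had an unadjusted p under 0.05, as did 8.36% of all genes. The count of called genes with sh_84 was 65, against 4 and 2 without its replicate 1 or 2, 24 without 1 array of sh_37, 28 without 1 of sh_83, 13 and 15 without replicate 1 or 2 of luciferase and 102 without replicate 2 of scrambled. HMGB2 was the only member with both sh_84 arrays above every control, as were 4.76% of all genes. Over both H2AZ1 hairpins no gene at all passed by limma, with 636 genes (3.45%) at an unadjusted p under 0.05 and none of the 7 among them; the 7 differences ran from -0.22 for HMGN3 to 0.02 for HMGB2. H2AZ1 itself was at -1.25 in that pooled fit (limma SE 0.43) and did not pass. The pooled fit missed its own target, so its lack of calls says little about the HMG genes. The intervals leave room for modest changes. At 95% the sh_83 difference of HMGA1 lay between -0.33 and 0.03, and that of HMGB2 between -0.43 and -0.03.

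Where a gene had several probe sets, they did not always give 1 size. The files give no probe positions, and HMG genes have many processed copies in the genome, so how far a probe set reads such copies is uncertain. HMGA1 had 3 probe sets with 1 symbol, and with sh_37 they gave -0.81, -0.68 and -0.67, each with a limma adjusted p of 0.000489 or lower over 19460 probe sets. With sh_38 the 3 gave -0.23, -0.20 and -0.21. HMGN1 had 2 probe sets: the brighter, 8176191, gave -0.84 with sh_38 and the dimmer, 8070389, gave -0.46. Both had their sh_38 arrays below every control, so the direction was shared and the size was not. With sh_37 the dimmer HMGN1 probe set gave -0.10 (limma SE 0.10, adjusted p = 0.633) and overlapped the controls. For sh_37 against sh_83 it gave 0.03 (limma SE 0.12, adjusted p = 0.969), and the arrays overlapped, unlike those of the brighter probe set. HMGN2 had 3 probe sets, and the choice among them decided its call with sh_37. The brightest, 7899187, gave -0.37 (limma adjusted p = 0.128), while 7982204 gave -0.53 (limma adjusted p = 0.00409) and 8000409 gave -0.53 (limma adjusted p = 0.00504). The mean of the 3 gave -0.48 (limma adjusted p = 0.00913), so HMGN2 passed as a mean and missed by its brightest probe set.

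**Figure D4:**
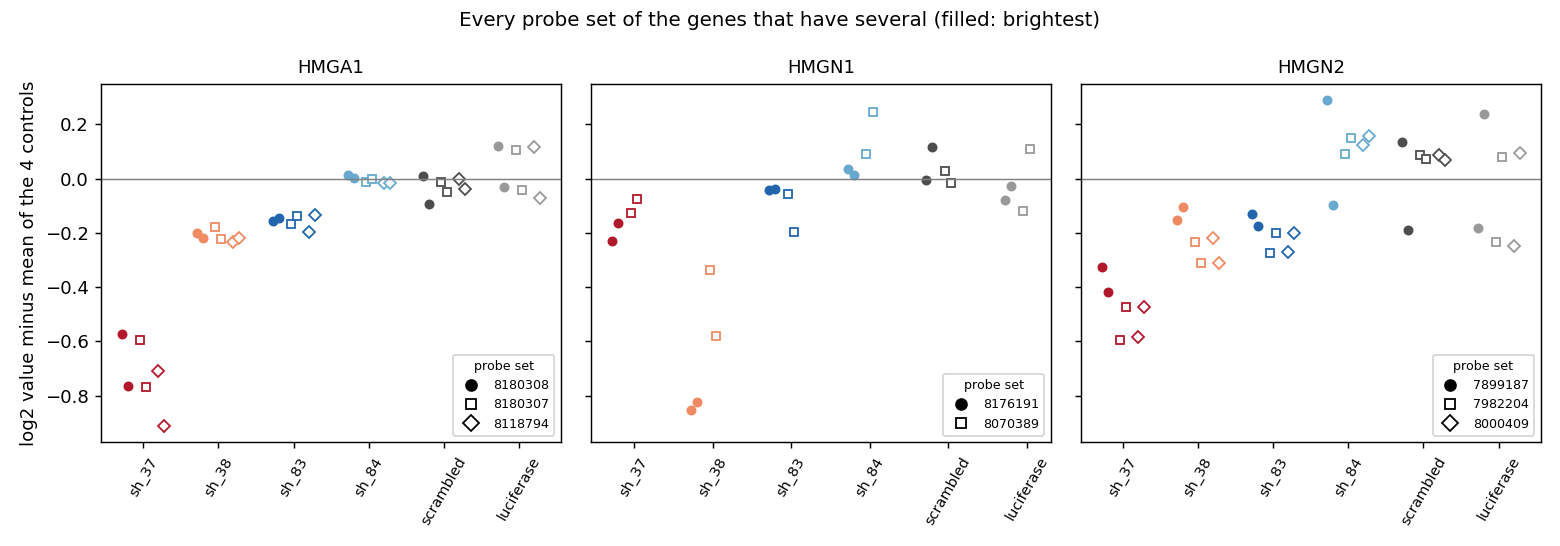
Log2 value of each array minus the mean of the 4 controls for every probe set with 1 symbol of HMGA1, HMGN1 and HMGN2, by hairpin; filled circles are the brightest probe set, used elsewhere. The HMGA1 probe sets lie together, while the filled HMGN1 points with sh_38 lie lower than the open ones (means -0.84 and -0.46).

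Linker histones, which HMGN and HMGB proteins compete with, were lower with sh_37 in 4 of 6 measured genes (median -0.34 beside 0.01 over all genes, with 7.19% called lower). H1-5 was at -0.81 (limma SE 0.10, adjusted p = 0.000339), H1-3 at -0.73 (limma SE 0.11, adjusted p = 0.00114) and H1-2 at -0.42 (limma SE 0.12, adjusted p = 0.0458). With sh_83, 1 of 6 passed, H1-5 at -0.50 (limma SE 0.10, adjusted p = 0.047), and with sh_84 none did. With sh_38, described only, H1-3 stood at -0.90 and H1-5 at -0.70.

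Among 16 measured genes with an HMG box outside the canonical families, 4 fell with sh_37 and none rose, where 7.19% of all genes were called lower and 5.72% higher (median -0.06 beside 0.01 over all genes). TFAM, which packages mitochondrial DNA, fell to a mean of 8.63 with sh_37, against 9.58 in the controls, a difference of -0.96 (limma SE 0.11, adjusted p = 0.000251). NSD2, a histone H3 methyltransferase with an HMG box, changed by -0.52 (limma SE 0.09, adjusted p = 0.00299) and WDHD1, a replication protein, by -0.38 (limma SE 0.10, adjusted p = 0.034). With sh_37, 9 of the 16 differences were negative, where 46.5% of all genes were. None of the 16 passed with sh_83 or sh_84. TFAM was also lower with sh_37 than with sh_83, by -0.94 (limma SE 0.12, adjusted p = 0.00108). The further canonical genes HMGN4 and HMGB4 did not pass in any comparison tested, with differences of -0.03 and 0.13 for sh_37. HMGN4, a close relative of HMGN2, stood at -0.01 with sh_38, 0.07 with sh_83 and 0.05 with sh_84.

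Of 10 receptors and partners of HMGB1 outside the cell, 4 rose with sh_37 and none fell, where 5.72% of all genes were called higher (median 0.21 beside 0.01 over all genes). CXCL12, the chemokine that forms a complex with HMGB1, averaged 6.97 with sh_37 and 5.83 in the controls, a difference of 1.14 (limma SE 0.10, adjusted p = 6.94e-05). LY96, the co-receptor of TLR4, was at 0.98 (limma SE 0.18, adjusted p = 0.00433) and CD24, a surface glycoprotein that binds HMGB1, at 0.87 (limma SE 0.13, adjusted p = 0.00132). Against sh_83, CD24 was higher with sh_37 by 1.44 (limma SE 0.15, adjusted p = 0.000248) and CXCL12 by 0.97 (limma SE 0.12, adjusted p = 0.00068). None of the 10 passed with sh_83 or sh_84 against the controls. CD24 stood at -0.57 with sh_83 against the controls (limma SE 0.13, adjusted p = 0.093), so its gap between sh_37 and sh_83 includes that lower value. The receptors AGER, TLR2 and TLR4 did not pass with sh_37 either, at -0.02, 0.02 and -0.08. With sh_38, described only, CXCL12 stood at 0.33, LY96 at 0.48 and CD24 at -0.11. Scrambled against luciferase gave -0.52 for CD24 (limma SE 0.15, adjusted p = 0.601), -0.37 for LY96 (limma SE 0.21, adjusted p = 0.684) and 0.04 for CXCL12. The controls averaged 6.18 for LY96 and 5.83 for CXCL12. Without array background values it cannot be said whether these genes were detected in the controls. HMGB1 itself has no value here, so receptor and ligand cannot be set side by side. Neither the 3 measured genes of the SET complex that holds HMGB2 (SET, ANP32A and APEX1) nor the 7 regulators of HMGA2 mRNA passed in any comparison tested; at an unadjusted p under 0.05 with sh_37 they were 1 and 2 genes.

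Proliferation genes moved beside the HMG genes that fell. With sh_37 all 12 listed genes fell, where 7.19% of all genes were called lower (median -0.50 beside 0.01 over all genes), among them CDK1, the mitotic kinase (-0.82), BUB1 of the spindle checkpoint (-0.76) and MCM2 of the replicative helicase (-0.68). With sh_83, 1 of 12 passed, TPX2, a spindle assembly factor (-0.44, limma SE 0.08, adjusted p = 0.0394), where 0.489% of all genes were called lower, with a median of -0.06 beside 0.01. With sh_84 none passed and the median was 0.13 beside 0.01. Between sh_37 and sh_83, 10 of 12 were lower with sh_37 (median -0.45 beside -0.01), where 3.23% of all genes were. With sh_38, described only, the 12 genes had a median of -0.29 beside 0.03. All 12 were negative there, where 43.3% of all genes were. In 11 of 12 both sh_38 arrays lay below every control (12.8% of all genes). HMGB2 stood at -0.77 with sh_37, -0.13 with sh_38, -0.23 with sh_83 and 0.27 with sh_84. The part of proliferation in the HMG results was not tested.

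**Figure D5:**
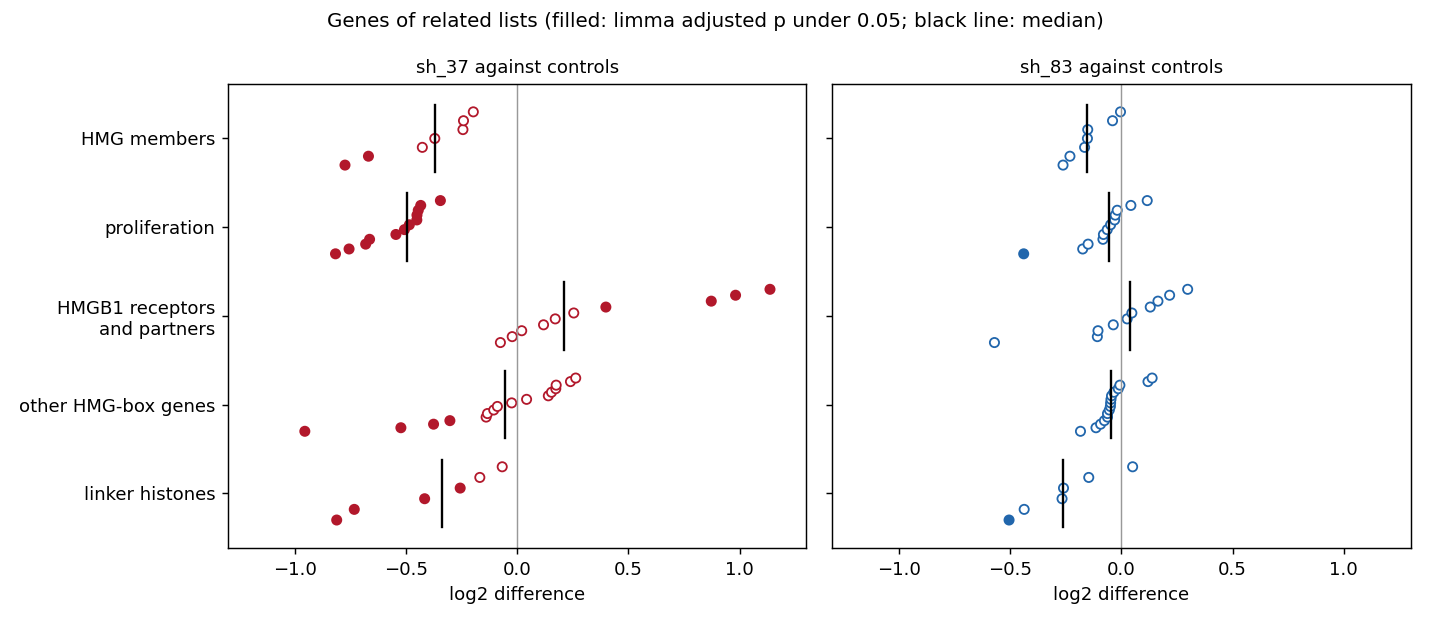
Log2 difference of each measured gene from the controls with sh_37 and with sh_83, for the HMG genes and 4 related lists; filled points had a limma adjusted p under 0.05 and black lines are medians. With sh_37 the proliferation median is -0.50 and that of the HMG genes -0.37, and with sh_83 they are -0.06 and -0.15.

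Markers of other cell types were read beside these results. Of 5 fibroblast markers 2 rose with sh_37, LUM (1.27, limma SE 0.09, adjusted p = 1.18e-05) and COL1A1 (0.69, limma SE 0.12, adjusted p = 0.00401), while DCN averaged 3.46 and FAP 4.71 in the controls. With sh_37, 1 of the 5 markers was negative, FAP at -0.19 (limma SE 0.10, adjusted p = 0.292). The summed unlogged level of the 5 was 1465.6 to 1586.8 with sh_37, 946 to 958.4 with sh_38, 864.3 to 869.2 with sh_83 and 558 to 558.7 with sh_84, against 624 to 690.1 with scrambled and 875.5 to 890.2 with luciferase. LUM had the highest control mean of the 5, 8.81, and so weighed most in that sum. LUM was lower with sh_84 (-0.85, limma SE 0.09, adjusted p = 0.00396). It also differed between the control hairpins, by -0.76 for scrambled against luciferase (limma SE 0.10, adjusted p = 0.287). Of 4 leukocyte markers LYZ fell with sh_37 (-0.82, limma SE 0.15, adjusted p = 0.00476), and PTPRC, which defines leukocytes, averaged 4.13 in the controls. Of 6 melanocyte markers SOX10 was called lower with sh_37 (-0.30, limma SE 0.09, adjusted p = 0.05 after rounding). None of the 5 keratinocyte or 5 endothelial markers passed in any comparison tested. No marker is listed at 0, and the part of any marker in the HMG results was not tested.

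The genes most like HMGN1 over the 12 arrays, by the smallest mean absolute gap between deviations from each gene's own mean, were UBP1 (0.05), DNAJC9 (0.05), PSME3 (0.06) and GGA2 (0.07), where the median over all genes was 0.26. UBP1, a transcription factor of the CP2 family, stood at -0.76 with sh_38 and -0.15 with sh_37. DNAJC9, a histone chaperone, stood at -0.79 and -0.30, PSME3, a proteasome activator, at -0.82 and -0.03, and GGA2, a Golgi adaptor, at -0.92 and -0.28 with sh_38 and sh_37. All 4 were thus low with sh_38 above all, as they had to be to match HMGN1. For HMGB2 the nearest were TYMS, NOL9, NEMP1 and SPIN4, each with a gap of 0.08, beside a median of 0.28 over all genes. TYMS, the thymidylate synthase, stood at -0.68 with sh_37 and -0.23 with sh_38, and NOL9, a kinase of ribosomal RNA processing, at -0.71 and -0.29. NEMP1, of the inner nuclear membrane, stood at -0.62 and -0.09, and SPIN4, of the spindlin family, at -0.57 and -0.10. These likenesses describe 12 arrays that share their processing and carry no test.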

How the data were processed

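The values are log2 expression per probe set as the authors deposited them; RMA is named, without a version or filter, per the submitters' processing notes. Columns had medians of 7.00 to 7.10 and were used as they stand. Of 33297 probe sets, 19460 had 1 gene symbol, 1754 several and 12083 none in the platform annotation; 19429 of those with 1 symbol were found by Entrez ID in the RefSeq gene table. The brightest probe set by mean over all arrays was kept for each of 18417 genes. Scan batch and signal over background are unknown.

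Hairpins were compared with limma 3.58.1 in R 4.3.3: 6 groups of 2 arrays, 6 residual degrees of freedom, eBayes, two-sided, Benjamini-Hochberg adjustment over all genes and a threshold of 0.05. The H2AZ1 hairpins together were fitted with hairpin as a random block (correlation 0.157). Figures used matplotlib 3.10.9.

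The HMG genes and the 12 lists, cell type markers included, were chosen with earlier results of these data known. By rule, named genes are the 9 family members, the targets, up to 3 genes per list that passed a test, by size, and the 4 genes most like HMGN1 and HMGB2. Outside that rule are HMGN4, HMGB4, AGER, TLR2, TLR4, the SET complex genes and cell type markers named for their levels. They had passed no test and were chosen for naming after their values were seen.

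Promoters came from RefSeq (GRCh38.p14). On simulated arrays of 18417 genes, for sh_37 against the controls the fit recovered 50% of changes of 0.5 and 94% of changes of 1 (log2), and 5.88% of its calls were false; for sh_37 against sh_83 these were 39%, 92% and 5.76%. Noise was drawn per gene, without differences that real arrays share. The share of genes moved was also far below the 12.9% called with sh_37. The adjustment depends on that share, so the recovery rates need not carry over to the real comparisons. Replicate numbers were checked for pairing: over 15 pairs of hairpins the correlation of deviations ran from -0.469 to 0.677 and exceeded 0.1 in 9. Among sh_37, sh_38, sh_84 and scrambled it ran from 0.375 to 0.677. Between each of these and luciferase it ran from -0.469 to -0.131. Arrays of different hairpins thus shared a shift, which the replicate numbers did not mark in 1 direction. The numbers were not taken to pair samples, and the reported fit has no term for that shift. Alternatives covered the pairing, each array left out, the probe set rule, dim genes, normalization, centring, the variance model and the control hairpin. The number of arrays limits the precision.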

Additional observations from a re-analysis of the deposited data

Results flagged for a closer look

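HMGN2 in replicate 1 of sh_84 measured 12.2985, far above the other 3 arrays with H2AZ1 hairpins. HMGN5 in the same array measured 7.9325, also far above the other 3. HMGN3 in replicate 2 of sh_38 measured 7.5585, far below the other 3 arrays with H2AZ2 hairpins. By Dixon's critical value for 4 samples an array lay that far out in 3 of 21 groups. Chance gives about 1 in 20 groups of like samples, but each group here joins 2 arrays of each of 2 hairpins, so that rate does not carry over.

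HMGA1 and HMGB2 differed between sh_37 and sh_83 by a test of the difference itself, with log2 differences of -0.5178 and -0.5433 for sh_37 minus sh_83. Each call was lost without some single arrays, as the values of that comparison show.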

How the results depend on the processing

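HMGA1 and HMGB2 passed with sh_37 under all 21 alternatives (highest adjusted p 0.0136 and 0.0084 by limma), and no HMG gene passed with sh_83, sh_84, both H2AZ1 hairpins or between the controls under any alternative run. The reported fit of both H2AZ1 hairpins did not call H2AZ1 itself. With sh_37 more members passed under some settings. HMGN5 passed in 8 of 21: with the replicate block (adjusted p = 0.0259), without the dimmest 25% of genes (0.0379), with eBayes trend and robust (0.0396), against luciferase alone (0.0285), without replicate 1 or 2 of scrambled (0.0387 and 0.0112) and without replicate 1 or 2 of sh_38 (0.024 each), all from limma. HMGN1 (0.0233) and HMGN2 (0.0488) passed with trend and robust. So 5 of 7 passed with that variance model, 3 with the replicate block and 2 in the reported fit; the cause was not tested. The block changed no call of sh_37 against sh_83. HMGN1 with sh_38 was at -0.65 as the mean of its probe sets.

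Counts over all genes moved more. With sh_83, 118 genes were called, against 74 when centred on the median, 284 with trend and robust, 50 against scrambled alone, 55 without hairpin sh_84 in the fit, a setting chosen after seeing the data, and 6 to 155 with 1 array left out. With sh_84, 65 were called, against 113 with the replicate block, 114 without the dimmest 25%, 176 with trend and robust, 1 against scrambled alone, 116 against luciferase alone and 2 to 102 with 1 array left out. With 1 array left out the count was 922 to 2550 for sh_37 and 470 to 1571 for sh_37 against sh_83. The H2AZ1 hairpins together gave 0, against 3 with trend and robust, 2 with no hairpin block, 17 without hairpin sh_84, and 0 to 1 with 1 array left out. Members with both sh_38 arrays below every control fell to 3 when quantile normalised again, against 5. The cause was not tested. Treating each probe set as a feature was also chosen after seeing the data. Scaling moved the median of all genes by at most 0.03.

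Some differences changed sign, none of which passed in the reported fit; those of HMGN3 with sh_83 (-0.17) and with both H2AZ1 hairpins (-0.22), of HMGN5 with sh_84 (-0.16) and of HMGB3 between the controls (0.15) lay farthest from 0 there. As the mean of probe sets HMGA1 stood at -0.0058 with sh_84, HMGN2 at 0.085 for scrambled against luciferase and HMGN1 at 0.0068 with both H2AZ1 hairpins. Quantile normalised again, HMGB3 stood at 0.0588 with sh_83 and 0.0447 with both H2AZ1 hairpins, HMGN1 at 0.0124 with both and HMGB2 at 0.0029 between the controls. Centred, HMGB3 stood at 0.0204 with sh_83 and 0.0245 with both, and HMGN1 at 0.0182 with both. Against scrambled alone HMGN3 stood at 0.0681 with sh_83 and 0.0154 with both, and with sh_84 HMGB3 stood at -0.0737, HMGN1 at -0.029 and HMGN5 at 0.0084. Against luciferase alone HMGB3 stood at 0.0724 and HMGN1 at 0.015 with sh_83, HMGA1 at -0.0362 with sh_84, and HMGB2 at -4e-04, HMGB3 at 0.0756 and HMGN1 at 0.0477 with both. Without hairpin sh_84, HMGB2 stood at -0.2312. With 1 array left out, the sh_84 ranges were -0.0247 to 0.0465 for HMGA1, -0.1044 to 0.0587 for HMGB3, -0.0011 to 0.0641 for HMGN1 and -0.0959 to 0.2896 for HMGN2. HMGB3 ranged from -0.1109 to 0.0522 with sh_83. For both H2AZ1 hairpins the ranges were -0.0752 to 0.1208 for HMGB2, -0.1116 to 0.067 for HMGB3, -0.0302 to 0.0298 for HMGN1 and -0.132 to 0.0558 for HMGN2. Between the controls they were -0.1497 to 0.0724 for HMGB2, -0.0921 to 0.3973 for HMGB3 and -0.265 to 0.1547 for HMGN2. The cause was not tested.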
